A study of Mus musculus with 4 samples.

Results

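The Slc25 genes encode the mitochondrial solute carriers, and 40 of them were measured in mouse inguinal white fat, which lies under the skin. They are all genes in the deposited tables whose symbol is Slc25a followed by a number, 40 of 13677 genes measured. A further 7 symbols of the family (Slc25a2, Slc25a18, Slc25a21, Slc25a31, Slc25a41, Slc25a43 and Slc25a54) had no row and were not analysed here. RNA sequencing gave 4 libraries, 2 labelled wildtype (WT) and 2 labelled FLCNKO, in which, per the design text, Flcn was deleted in fat. Flcn encodes folliculin, a tumour suppressor. The series concerns how folliculin, through an mTOR pathway, relates to browning of fat. The sources used here do not give age, sex, strain, the promoter that drives the deletion or any allele that both groups share. No label ties a library to 1 animal, and the spread between these libraries may be technical. Each p-value, standard error (SE) and interval of a fold change combines that spread with a variance trend fitted over all genes. An SE here is therefore not the spread between the libraries of that gene alone.

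Slc25 carriers sit in the inner mitochondrial membrane, with a few in other membranes, and move metabolites between the cytosol and the matrix. Each is built from repeats of a pair of membrane helices, and most exchange 1 substrate for another, such as ADP for ATP or malate for phosphate. In fat cells they connect respiration with fatty acid oxidation, with the export of citrate for fatty acid synthesis, and with cofactor supply. The founding uncoupling protein of brown fat belongs to the same family but carries an Ucp symbol, and is therefore outside the rule used here.

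Values are the deposited log2 expression values, in which a difference of 1 is a doubling. The depth behind them is unknown, and no division by transcript length is stated for them. White adipocyte markers were high in every library, with Adipoq at 18.31 and 18.17 in WT and 17.72 and 17.85 in FLCNKO. Flcn itself did not separate the groups (12.36 and 12.21 in WT, 12.35 and 12.12 in FLCNKO). Which exons were deleted is not stated, so the groups are named by their labels, which this value does not check.

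As a family the carriers were more often higher than lower in FLCNKO, while 1 of 40 passed the test over all genes. Slc25a34 rose, and no carrier fell. The limma test with Benjamini-Hochberg adjustment over 13677 genes called 1.59% of all genes at an adjusted p under 0.05, 0.98% higher and 0.614% lower. With 1 call of 40 (2.5%), the number of calls is not a result about the family. At an unadjusted p under 0.05, 18 members were higher and 3 lower, or 45.0% and 7.5%, against 12.1% and 10.3% of all genes. Both FLCNKO libraries lay above both WT libraries for 21 members (52.5%, against 29.2% of all genes) and below them for 5 (12.5%, against 25.4%), and the groups overlapped for 14. Groups that did not overlap in either direction thus made up 65.0% of the members and 54.6% of all genes. The log2 fold change, the FLCNKO mean minus the WT mean, had a median of 0.28 over the members and of 0.0046 over all genes. It was above 0 for 28 members (70.0%, against 50.4%) and ranged from -0.83 for Slc25a47 to 3.84 for Slc25a34. These shares describe the members, which differ in abundance from the average gene and share the libraries, and they carry no test of the list. In bulk tissue, more cells of a type and more RNA per cell cannot be told apart.

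Most differences were small. A log2 fold change of at least 1 in either direction was seen in 4 members, Slc25a34, Slc25a48, Slc25a20 and Slc25a42, all higher. The median absolute difference between the WT libraries was 0.16 over the members, and between the FLCNKO libraries 0.25. Across the groups it lay between 0.38 and 0.49, against 0.27 to 0.31 over all genes. FLCNKO replicate 1 held the highest value of the 4 libraries for 20 members and replicate 2 for 9.

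**Figure D1:**
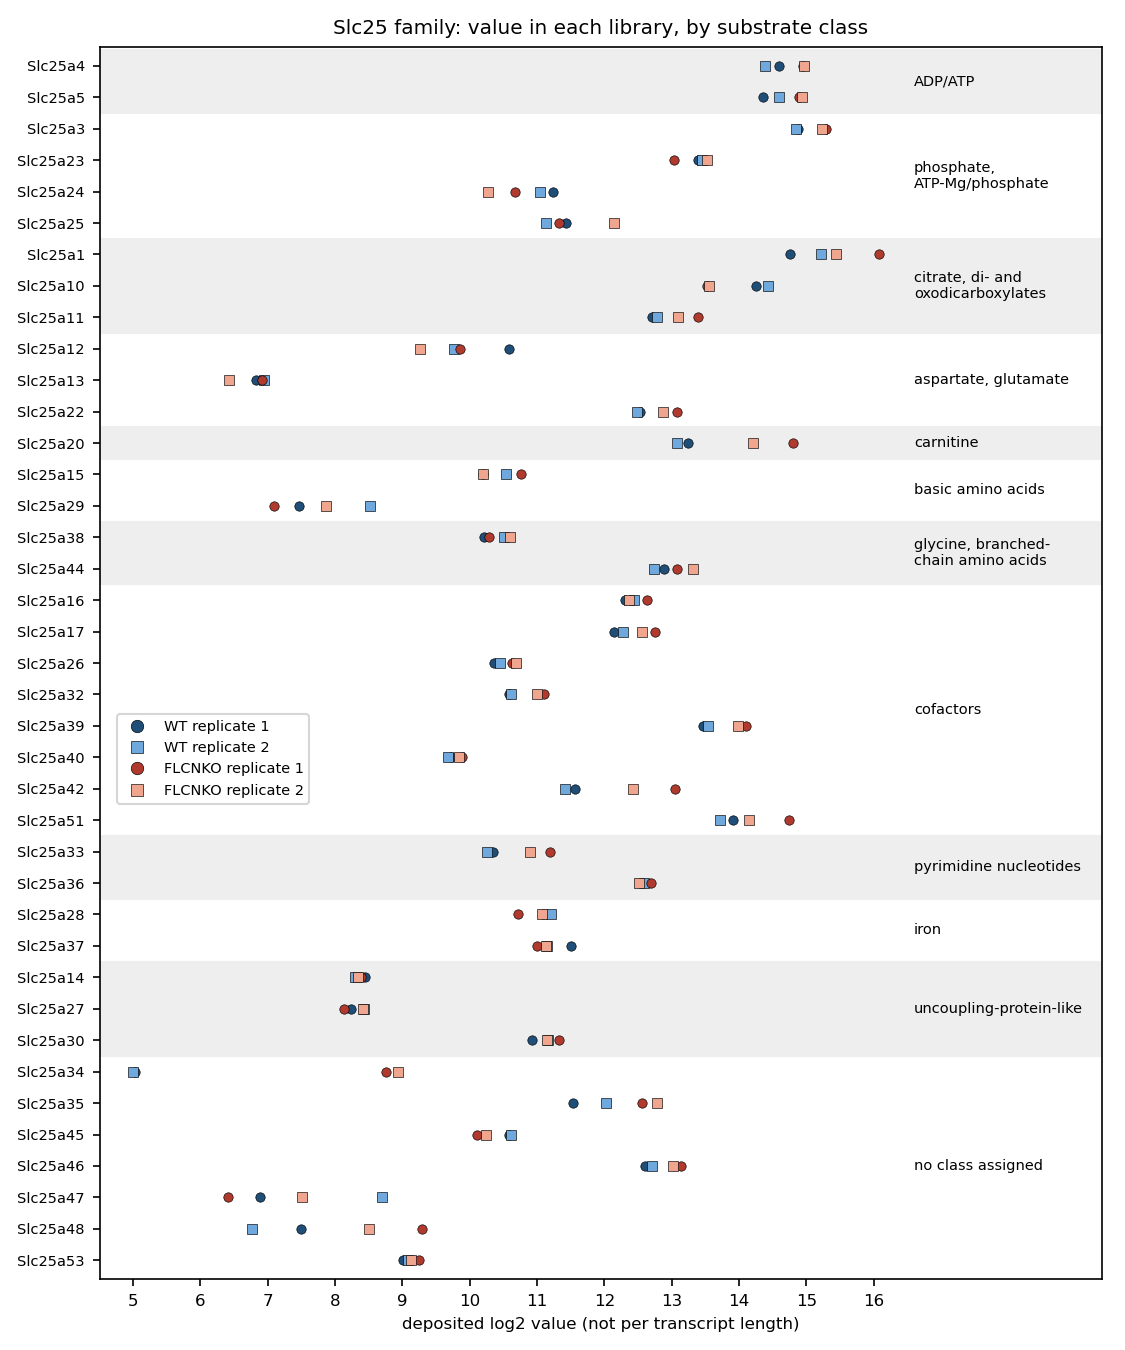
Deposited log2 value (x axis, not per transcript length) of each of 39 carriers (rows, grouped by known substrate) in each library, with circles for replicate 1 and squares for replicate 2, blue for WT and red for FLCNKO. Slc25a34 sits near 5 in both WT libraries and near 9 in both FLCNKO libraries, and no other member shows a gap of that size.

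Slc25a34, a carrier with no substrate class assigned here, was the 1 member called. Its values were 5.02 and 4.998 in WT and 8.76 and 8.94 in FLCNKO. The WT libraries nearly coincided and the FLCNKO libraries lay far above them. Its exact value was shared by 27 and 34 genes in WT and by 25 and 26 in FLCNKO, so values at this level move in steps. The closeness of the WT values is therefore no measure of spread. The log2 fold change was 3.84 ± 0.36 (SE, n = 2 per group; limma adjusted p = 0.0336), or 14.3-fold, with a 95% interval from 2.92 to 4.76. In the WT libraries 1.56% and 1.41% of all genes had lower values than Slc25a34, and in the FLCNKO libraries 23.3% and 25.02% did. The WT values thus lie near the bottom of the tables, and the depth behind them is unknown, so the size of the fold change is uncertain. Leaving out any 1 library kept the fold change between 3.75 and 3.93 but lost the call (adjusted p from 0.0896 to 0.246), as did a fit without the mean-variance trend (adjusted p = 0.14). In each of these fits 0 of 13677 genes were called, and with 1 library left out the lone library of a group is assumed to vary like the other group, so the lost call says nothing about Slc25a34 in particular. Its adjusted p ranged from 0.0242 to 0.246 over 10 alternatives.

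The sequence around the start of Slc25a34 is shown because this is the carrier with the called difference, and those of Slc25a33 and Slc25a1 because both were higher and hold the core of the element bound by MiT/TFE factors, which folliculin is known to control. Windows to print were chosen after the values were seen. Each window runs from 250 bases before to 50 after the RefSeq start (build GRCm38.p6, not the build of the authors' alignment), 5′ to 3′ on the strand of the gene. Capitals mark AAGGTCA or its reverse complement, the half-site of estrogen-related receptors, in Slc25a34 (chr4:141623785-141624084, minus strand), and CACGTG in Slc25a33 (chr4:149774218-149774517, minus strand) and Slc25a1 (chr16:17928170-17928469, minus strand).
Slc25a34: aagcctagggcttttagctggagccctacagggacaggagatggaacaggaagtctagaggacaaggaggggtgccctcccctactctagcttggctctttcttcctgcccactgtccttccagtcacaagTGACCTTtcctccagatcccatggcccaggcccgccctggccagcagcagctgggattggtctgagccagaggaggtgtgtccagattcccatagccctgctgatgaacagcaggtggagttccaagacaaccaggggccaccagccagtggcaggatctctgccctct
Slc25a33: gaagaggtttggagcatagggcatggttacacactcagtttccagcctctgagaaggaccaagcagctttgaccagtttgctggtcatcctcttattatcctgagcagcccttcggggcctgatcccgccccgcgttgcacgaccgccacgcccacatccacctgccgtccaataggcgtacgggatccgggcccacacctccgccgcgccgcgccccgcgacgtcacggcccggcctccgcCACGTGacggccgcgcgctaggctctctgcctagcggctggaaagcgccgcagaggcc
Slc25a1: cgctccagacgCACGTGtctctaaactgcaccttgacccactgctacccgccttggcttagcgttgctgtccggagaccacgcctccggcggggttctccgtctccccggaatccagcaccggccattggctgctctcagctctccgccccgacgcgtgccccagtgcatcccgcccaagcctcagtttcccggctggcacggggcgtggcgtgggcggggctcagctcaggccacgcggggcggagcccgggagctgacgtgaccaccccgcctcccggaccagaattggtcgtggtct

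Windows were available for 31 of the 40 members, 40 windows in all, and 5 motifs were searched on both strands. AAGGTCA was found in 1 member window, that of Slc25a34, where it starts at base -119 from the start site on the opposite strand. It was found in 4.72% of all 32851 windows. CACGTG was found in 7 of 40 member windows (17.5%, against 7.15% of all windows), in the genes Slc25a1, Slc25a13, Slc25a14, Slc25a15, Slc25a33 and Slc25a36. Of those 6 genes, Slc25a1 and Slc25a33 had an unadjusted p under 0.05. In Slc25a33 the motif starts at base -8, and in Slc25a1 at base -239. The longer form TCACGTGA, which contains CACGTG, was in 1 member window, that of Slc25a36 (0.974% of all windows), and Slc25a36 had a log2 fold change of 0.031. TCAAGGTCA, which contains AAGGTCA, and the direct-repeat motif of nuclear receptors (a pair of half-sites with 1 base between them) were in 0 member windows and in 0.423% and 0.0396% of all windows. These are letter matches in a short window and say nothing of binding.

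Slc25a4 and Slc25a5 encode the ADP/ATP carriers that export ATP from the matrix, the first known as the muscle and heart form. Slc25a4 was 14.60 and 14.39 in WT and 14.95 and 14.97 in FLCNKO (log2 fold change 0.46 ± 0.12, SE; limma adjusted p = 0.113). Slc25a5 was 14.36 and 14.59 in WT and 14.89 and 14.93 in FLCNKO (0.44 ± 0.13; adjusted p = 0.134). For both genes the groups did not overlap and neither passed. Slc25a5 is uncertain, because 49.4% of its stretches of 31 bases occur in transcripts of other genes. Slc25a3, the phosphate carrier that supplies ATP synthase, was 14.88 and 14.85 in WT and 15.30 and 15.23 in FLCNKO (0.40 ± 0.11; adjusted p = 0.118), and its groups did not overlap either.

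The calcium-regulated ATP-Mg/phosphate carriers, which adjust the adenine nucleotide pool of the matrix, did not share a direction. Slc25a24 was lower, with 11.24 and 11.04 in WT and 10.67 and 10.27 in FLCNKO (-0.67 ± 0.18; limma adjusted p = 0.121). Slc25a23 was 13.39 and 13.45 in WT and 13.03 and 13.52 in FLCNKO, and the FLCNKO libraries lay on either side of WT (-0.14 ± 0.18). Slc25a25 was 11.43 and 11.13 in WT and 11.32 and 12.14 in FLCNKO (0.45 ± 0.29), a difference carried by FLCNKO replicate 2, since it was 0.046 without that library. Neither Slc25a23 nor Slc25a25 had an unadjusted p under 0.05.

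Carriers of citrate and of dicarboxylates differed in direction. Slc25a1, the citrate carrier, exports citrate, from which ATP citrate lyase (Acly) makes acetyl-CoA for fatty acid synthesis. Slc25a1 was 14.75 and 15.22 in WT and 16.09 and 15.44 in FLCNKO (0.78 ± 0.27, SE; limma adjusted p = 0.189), with FLCNKO replicate 2 close to WT replicate 2. With 1 library left out its log2 fold change ranged from 0.45 to 1.10, the lowest without FLCNKO replicate 1. Acly was 14.17 and 15.05 in WT and 17.15 and 16.14 in FLCNKO (2.04 ± 0.43; adjusted p = 0.0829), the same order of libraries as Slc25a1.

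Slc25a10, the dicarboxylate carrier, exchanges malate and succinate for phosphate and is known to be abundant in white fat. It was 14.25 and 14.42 in WT and 13.52 and 13.56 in FLCNKO. The FLCNKO values were nearly equal and both lay 0.69 or more below WT. Its log2 fold change was -0.79 ± 0.11 (SE, n = 2 per group; 95% interval from -1.09 to -0.50), or 1.74-fold lower, with a limma adjusted p of 0.0509, just short of the threshold. Over 11 alternative settings its adjusted p ranged from 0.0364 to 0.32 and was under the threshold in 3, among them robust variance estimation (0.0466) and keeping genes whose mean reached 8 (0.0452). An antisense gene, Gm11788, overlaps its exons, and the strand setting of the counts is not given, so reads of the 2 cannot be told apart. Slc25a11, the 2-oxoglutarate carrier of the malate-aspartate shuttle, was higher, with 12.71 and 12.79 in WT and 13.40 and 13.10 in FLCNKO (0.50 ± 0.14; adjusted p = 0.125). Its exons overlap the protein-coding gene Rnf167 on the opposite strand, so the same limit holds. Exons of 12 of the 40 members overlap another gene, and not all of these are named here.

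**Figure D2:**
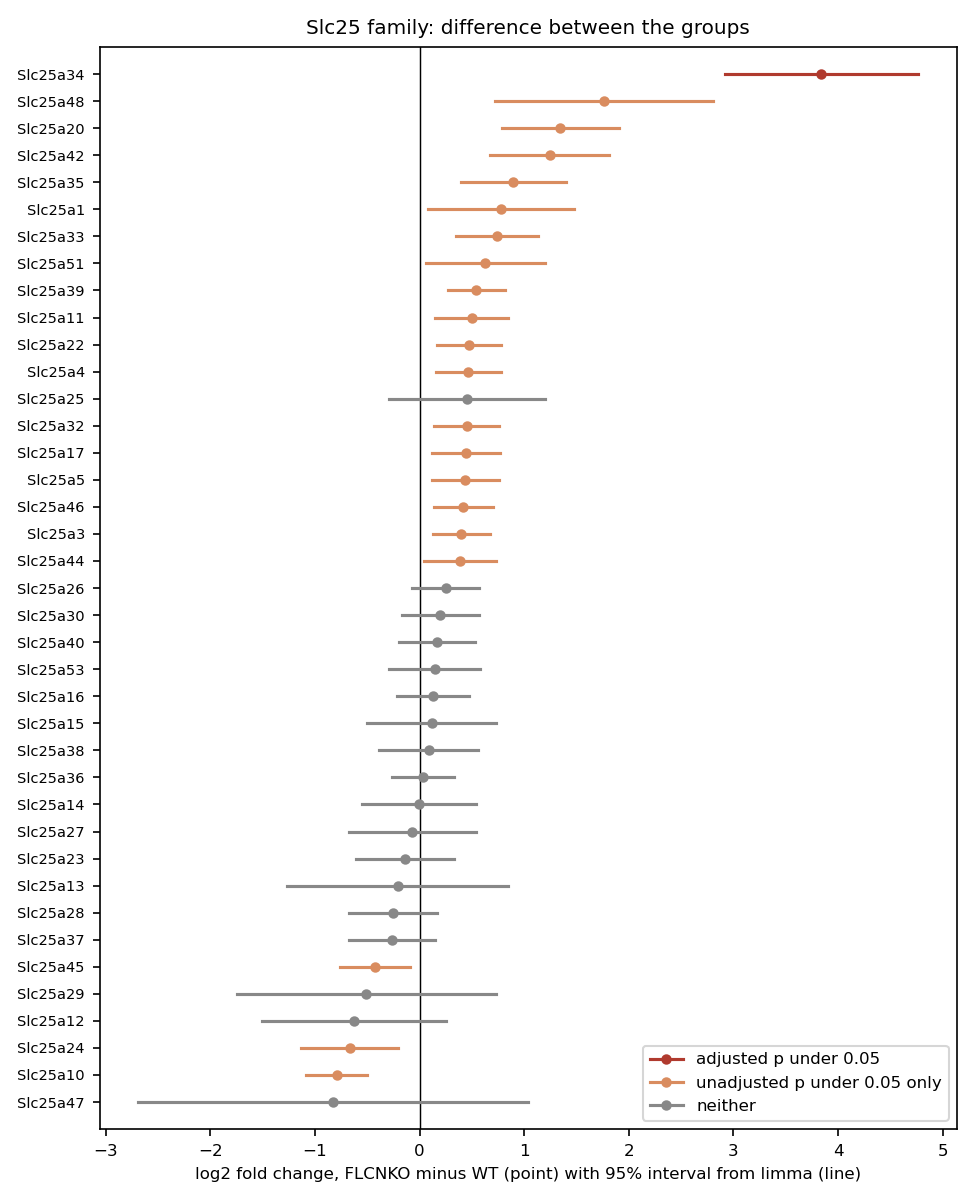
Log2 fold change (FLCNKO minus WT, x axis) of each of 39 carriers, ordered by size, with the 95% interval from limma. Slc25a34 at 3.84 is the 1 member past the adjusted threshold, and the intervals of 20 others (orange) exclude 0 before adjustment, 17 higher and 3 lower.

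Aspartate and glutamate carriers showed 1 higher and 2 overlapping members. Over all genes 29.2% were higher with groups that did not overlap, so this number is not a result about these carriers. Slc25a22, a glutamate carrier, was 12.53 and 12.49 in WT and 13.08 and 12.87 in FLCNKO (0.47 ± 0.12; limma adjusted p = 0.11). Slc25a12, the aspartate/glutamate carrier of excitable tissues and muscle, was 10.59 and 9.77 in WT and 9.85 and 9.26 in FLCNKO (-0.63 ± 0.34; adjusted p = 0.353), and FLCNKO replicate 1 lay above WT replicate 2. Slc25a13, its liver paralogue, was near 7 in all libraries, with 6.82 and 6.95 in WT and 6.92 and 6.43 in FLCNKO.

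Of 14 skeletal muscle markers, all were measured and 0 were called. Their median log2 value was 12.90 and 10.18 in WT and 12.11 and 5.42 in FLCNKO, highest in WT replicate 1 and lowest in FLCNKO replicate 2, and Slc25a12 had its highest and lowest values in the same libraries. Their summed level, as log2, was 17.47 and 14.42 in WT and 16.35 and 13.42 in FLCNKO. In FLCNKO replicate 2 nearly all of that sum was Acta1 (13.32), which was lowest in WT replicate 2 (12.21) and so did not follow that order. The lowest value of any muscle marker was 3.94, for Ckm in FLCNKO replicate 2, where the lowest value of any gene was 2.37. No gene was at 0 in any library, so a value above 0 does not show that a marker was detected. The part of muscle RNA in the values of Slc25a12 was not tested. Slc25a4, also abundant in muscle, was 14.60 and 14.39 in WT and 14.95 and 14.97 in FLCNKO. It thus had the replicate order of the muscle marker medians in WT and not in FLCNKO, where its values nearly coincided. The part of muscle RNA in its values was not tested either.

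The carnitine carrier Slc25a20 and the coenzyme A carrier Slc25a42 had the largest log2 fold changes among the members given a class. Slc25a20 exchanges acylcarnitines for carnitine and so brings fatty acids into the matrix for oxidation. It was 13.25 and 13.08 in WT and 14.81 and 14.21 in FLCNKO. Both FLCNKO libraries lay at least 0.96 above WT. The log2 fold change was 1.35 ± 0.22 (SE, n = 2 per group; limma adjusted p = 0.0584), or 2.54-fold, with a 95% interval from 0.79 to 1.90, and it passed with robust variance estimation (adjusted p = 0.0489; range over 11 alternatives 0.0263 to 0.32).

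Enzymes on either side of Slc25a20 differed in size. Cpt1b, which makes acylcarnitines in muscle and brown adipocytes, stood at 4.61 and 3.63 in WT and 7.68 and 7.13 in FLCNKO (3.29 ± 0.70, SE; limma adjusted p = 0.0825). Its WT values lie below those of Slc25a34 (5.02 and 4.998), near the bottom of the tables, so the size of its fold change is uncertain. Cpt1a, the form of other tissues, was 12.74 and 12.73 in WT and 12.79 and 12.68 in FLCNKO (0.0011 ± 0.10; adjusted p = 0.996). Cpt2, which reverses the step in the matrix, had a log2 fold change of 0.80 ± 0.15 (adjusted p = 0.0693), and Crat, which makes acetylcarnitine, one of 1.14 ± 0.17 (adjusted p = 0.0517). None of these 4 passed.

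Slc25a42, which imports coenzyme A, was 11.56 and 11.42 in WT and 13.05 and 12.43 in FLCNKO (1.24 ± 0.22; limma adjusted p = 0.0647), or 2.37-fold higher, with groups that did not overlap. Slc25a16, also linked to coenzyme A, was 12.30 and 12.44 in WT and 12.63 and 12.37 in FLCNKO, and the groups overlapped (0.13 ± 0.14). Slc25a17, the peroxisomal carrier of coenzyme A and related nucleotides, was 12.14 and 12.28 in WT and 12.75 and 12.55 in FLCNKO (0.44 ± 0.13; adjusted p = 0.131).

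Of the 9 cofactor carriers, 9 had log2 fold changes above 0 (against 50.4% of all genes), 5 were higher at an unadjusted p under 0.05 (against 12.1%) and 7 were higher with groups that did not overlap (against 29.2%). Their median was 0.44, and 0 were called. Slc25a39, a glutathione carrier, was 13.47 and 13.54 in WT and 14.10 and 13.99 in FLCNKO (0.54 ± 0.11; limma adjusted p = 0.0725). Its paralogue Slc25a40 was 9.72 and 9.68 in WT and 9.88 and 9.84 in FLCNKO (0.17 ± 0.14). Slc25a51, the NAD carrier, was 13.92 and 13.72 in WT and 14.75 and 14.14 in FLCNKO (0.63 ± 0.22; adjusted p = 0.192), the upper value in replicate 1.

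Slc25a32, linked to folate and FAD, was 10.58 and 10.62 in WT and 11.10 and 11.00 in FLCNKO (0.45 ± 0.12; limma adjusted p = 0.118). Slc25a26, which imports S-adenosylmethionine, had a log2 fold change of 0.25 ± 0.13 (limma adjusted p = 0.319), and its groups did not overlap.

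Slc25a33 and Slc25a36 carry pyrimidine nucleotides and serve the mitochondrial genome. Slc25a33 was 10.34 and 10.25 in WT and 11.19 and 10.89 in FLCNKO (0.74 ± 0.15, SE; limma adjusted p = 0.0789). Slc25a36 was 12.55 and 12.59 in WT and 12.69 and 12.51 in FLCNKO (0.031 ± 0.12; 95% interval from -0.26 to 0.33). For Slc25a33, 13.5% of its 31-base stretches occur in other genes and the antisense gene Gm13068 overlaps it.

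Of the 4 amino acid carriers in these classes, 1 had groups that did not overlap, against 54.6% of all genes. This number is thus not a result about these carriers. Slc25a44, known from brown adipocytes as a carrier of branched-chain amino acids, stood at 12.89 and 12.73 in WT and 13.08 and 13.32 in FLCNKO (0.38 ± 0.13; limma adjusted p = 0.187). Slc25a38, the glycine carrier of haem synthesis, was 10.21 and 10.51 in WT and 10.29 and 10.60 in FLCNKO, so that the libraries split by replicate number more than by group (0.088 ± 0.18). The ornithine carrier Slc25a15 had a log2 fold change of 0.12 ± 0.24 and overlapped. Slc25a29, a carrier of basic amino acids, was low and uneven, with 7.46 and 8.52 in WT and 7.10 and 7.86 in FLCNKO (-0.51 ± 0.48).

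Both iron carriers, the mitoferrins, were slightly lower. Slc25a37, the form of red cell precursors, was 11.50 and 11.15 in WT and 11.00 and 11.13 in FLCNKO (-0.27 ± 0.16, SE; limma adjusted p = 0.399). Slc25a28, the form of other tissues, was 11.09 and 11.21 in WT and 10.71 and 11.08 in FLCNKO (-0.25 ± 0.17; adjusted p = 0.431). The groups were separated by 0.02 and 0.01 only. Red blood cell genes, 5 of 7 listed, had a summed level, as log2, of 15.76 and 15.40 in WT and 14.18 and 15.23 in FLCNKO. Slc25a37 had the same order of libraries, highest in WT replicate 1 and lowest in FLCNKO replicate 1. Hbb-bs, Hba-a1 and Hba-a2 had that order too. Alas2 and Hbb-bt did not, with their highest values in FLCNKO replicate 2 (10.21 and 11.96). The lowest red cell value was 8.67, for Alas2, and the part of blood in the values of Slc25a37 was not tested.

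The relatives of the uncoupling proteins had small differences. Slc25a14, Slc25a27 and Slc25a30 had log2 fold changes of -0.0046 ± 0.21, -0.069 ± 0.24 and 0.20 ± 0.14 (SE), and the groups overlapped for each. Slc25a30, a kidney form, was 10.93 and 11.16 in WT and 11.33 and 11.15 in FLCNKO. The 95% interval of Slc25a14 ran from -0.55 to 0.54.

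Of the 7 carriers with no class assigned, Slc25a34 is described above. Slc25a35, the paralogue it was paired with here, was 11.53 and 12.02 in WT and 12.56 and 12.78 in FLCNKO (0.90 ± 0.20, SE; limma adjusted p = 0.0872). Slc25a35 is uncertain, since 27.5% of its 31-base stretches occur in other genes and Rangrf overlaps it on the opposite strand. Slc25a48 was 7.498 and 6.77 in WT and 9.28 and 8.50 in FLCNKO (1.76 ± 0.41; adjusted p = 0.0949), or 3.39-fold higher. The groups of Slc25a48 lay 1.01 apart, with an SD of 0.52 in WT and 0.55 in FLCNKO.

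Slc25a46, an outer membrane protein that takes part in mitochondrial dynamics, was 12.61 and 12.71 in WT and 13.14 and 13.02 in FLCNKO (0.42 ± 0.11; limma adjusted p = 0.116). Slc25a45 was lower, with 10.58 and 10.62 in WT and 10.11 and 10.24 in FLCNKO (-0.43 ± 0.13; adjusted p = 0.15). Slc25a53 was close to 9 in all libraries (0.14 ± 0.17). Slc25a47, known from liver, had the widest spread in WT, 6.88 and 8.70, with 6.42 and 7.51 in FLCNKO (-0.83 ± 0.73; adjusted p = 0.562).

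Paralogues of the family were also compared inside each library, as the log2 value of 1 minus that of the other. Each shift is the log2 fold change of 1 member minus that of the other. Transcript length cancels from it, as it does from the fold change of a single gene. Of 10 pairs listed, 9 were measured, and the groups did not overlap for 5. Among all genes taken singly the groups did not overlap for 54.6%, so this number is not a result about the pairs. The difference Slc25a34 minus Slc25a35 was -6.51 and -7.02 in WT and -3.80 and -3.84 in FLCNKO, a shift of 2.94 towards Slc25a34. The size of this shift is uncertain, given the low WT values of Slc25a34 and the shared stretches of Slc25a35. Slc25a10 minus Slc25a11 was 1.53 and 1.64 in WT and 0.13 and 0.46 in FLCNKO, a shift of -1.29. Both genes of that second pair exchange dicarboxylates, and the difference between them was smaller in both FLCNKO libraries. The exons of each overlap another gene, as given above.

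Slc25a33 minus Slc25a36 shifted by 0.71, from -2.21 and -2.33 in WT to -1.51 and -1.62 in FLCNKO. Slc25a39 minus Slc25a40 shifted by 0.38, from 3.75 and 3.86 to 4.22 and 4.15. The shift of Slc25a25 minus Slc25a24 was 1.12, with 0.19 and 0.08 in WT and 0.65 and 1.87 in FLCNKO, and 0.51 without FLCNKO replicate 2. For the ADP/ATP carriers, Slc25a4 minus Slc25a5 was 0.24 and -0.20 in WT and 0.056 and 0.040 in FLCNKO, with no shift beyond the spread (0.027). The mitoferrin pair (0.011), Slc25a12 and Slc25a13 (-0.42) and Slc25a23 and Slc25a24 (0.53) overlapped too. A two-sided exact permutation test of 2 libraries against 2 cannot go below p = 0.333, which the 5 separated pairs reached (0.60 after adjustment over 9 pairs).

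**Figure D3:**
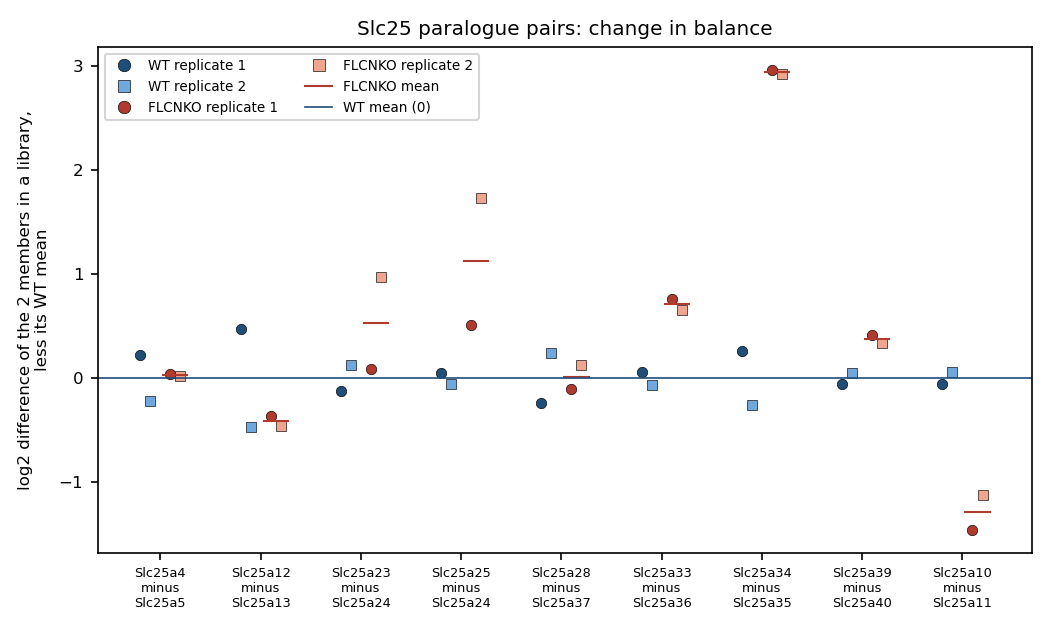
Log2 difference between the 2 members of each of 9 paralogue pairs in each library, less the WT mean of that pair (y axis), with lines for the WT mean at 0 and the FLCNKO mean. The pair Slc25a34 and Slc25a35 shifted by 2.94 and the pair Slc25a10 and Slc25a11 by -1.29, while Slc25a4 and Slc25a5 differed by 0.027.

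Levels of different carriers were compared only per length, as the log2 value per kilobase of the principal transcript in GENCODE M21, the lengths of which may differ from those used in counting. This takes the deposited values as not yet divided by length. In WT the highest levels per kilobase were those of Slc25a1 (14.25), Slc25a3 (14.18), Slc25a5 (14.16), Slc25a4 (13.55) and Slc25a10 (13.32). The first 3 differed by less than the SD of Slc25a1 between WT libraries (0.33). In FLCNKO the order was Slc25a1 (15.03), Slc25a5 (14.60), Slc25a3 (14.58), Slc25a4 (14.01) and Slc25a20 (13.67), and Slc25a10 (12.52) was at rank 7. Slc25a20 was at rank 7 in WT, so these 2 genes exchanged ranks. Slc25a34 had the lowest level per kilobase of all 40 in WT (3.59), and in FLCNKO it reached 7.43, at rank 34.

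Other genes of mitochondrial transport, from a list of 26, included 1 that passed. The ABC transporter gene Abcb8 was 11.95 and 12.05 in WT and 12.89 and 12.86 in FLCNKO. It rose by 0.88 ± 0.11 (log2, SE; limma adjusted p = 0.0422), and 0 of the 26 fell. Of the list, 8 were higher and 2 lower at an unadjusted p under 0.05, against 12.1% and 10.3% of all genes, and the median was 0.23. Of all genes, 1.59% were called. Vdac1, the main outer membrane channel, was 14.19 and 14.20 in WT and 14.93 and 14.72 in FLCNKO (0.63 ± 0.12; adjusted p = 0.0702). The pyruvate carrier genes Mpc1 and Mpc2 had log2 fold changes of 0.88 ± 0.23 and 0.46 ± 0.28 (limma adjusted p = 0.116 and 0.40).

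Of 24 genes listed as enzymes that make or use the carried substrates, 2 rose and 0 fell, with a median of 0.44. At an unadjusted p under 0.05, 12 were higher and 2 lower. Over all genes these shares were 0.98% called higher, 0.614% called lower, 12.1% higher and 10.3% lower. The 2 were Gpd2, of the glycerol phosphate shuttle (2.26 ± 0.25), and Ogdh, which consumes the oxoglutarate that Slc25a11 carries (0.99 ± 0.11), both with a limma adjusted p of 0.0404. Glycerol phosphate is in none of the substrate classes used here, so Gpd2 stands outside the description of this list. Oat, which links ornithine to glutamate, was lower, with 14.25 and 14.28 in WT and 13.61 and 13.64 in FLCNKO (-0.64 ± 0.10; adjusted p = 0.0552).

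Markers of other cell types differed between the groups beside these carriers. Brown and beige adipocyte markers, 10 of 10 measured, had a summed level, as log2, of 14.28 and 13.61 in WT and 17.65 and 16.36 in FLCNKO, so replicate 1 was the higher in each group. Cidea (16.64 and 14.97) and Cox8b (15.92 and 15.19) had the highest values of the list in FLCNKO. Ppargc1a had another order, with 9.53 and 9.74 in WT and 10.70 and 10.82 in FLCNKO, as had Kng2, Ucp1 and Dio2. The other markers had the order of the sum. The order of the 4 libraries in the summed level was seen in 8 of 40 carriers (20.0%, against 6.68% of all genes). Among them were Slc25a20, Slc25a42, Slc25a33, Slc25a48 and Slc25a51. That order requires a gene to be higher in FLCNKO. Among genes higher at an unadjusted p under 0.05 it was seen in 7 of 18 carriers (38.9%), against 24.6% of all such genes. Of the brown and beige markers 3 were called higher (Cox8b, Ppargc1a and Otop1). Over all genes 0.98% were called higher and 0.614% lower. The groups of these markers did not overlap for 8 of 10, all higher, against 29.2% of all genes. They overlapped for Ucp1 (10.595 and 7.42 in WT, 13.79 and 10.06 in FLCNKO) and for Dio2 (log2 fold change -0.080 ± 0.97, SE). The summed level of fibroblast markers, 7 of 7, was 20.004 and 19.86 in WT and 18.97 and 18.82 in FLCNKO, with 3 genes called lower. That of macrophage markers, 8 of 8, was 17.12 and 16.91 in WT and 16.29 and 15.97 in FLCNKO, with 2 called lower. Of white adipocyte markers 0 of 8 were called, though 7 had log2 fold changes below 0. Of them 3 (Adipoq, Retn and Cfd) were lower at an unadjusted p under 0.05, against 10.3% of all genes. Cfd differed most (-1.13 ± 0.21, SE; limma adjusted p = 0.0691). Of endothelial markers 0 of 5 were called, and of epithelial markers 1 of 3 measured (Trp63, lower). The lowest values were 3.63 among brown and beige, 12.52 among fibroblast and 11.06 among macrophage markers. Slc25a24 was lower in the same order of libraries as both. The part of a shift in cell types in the carriers' values was not tested.

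**Figure D4:**
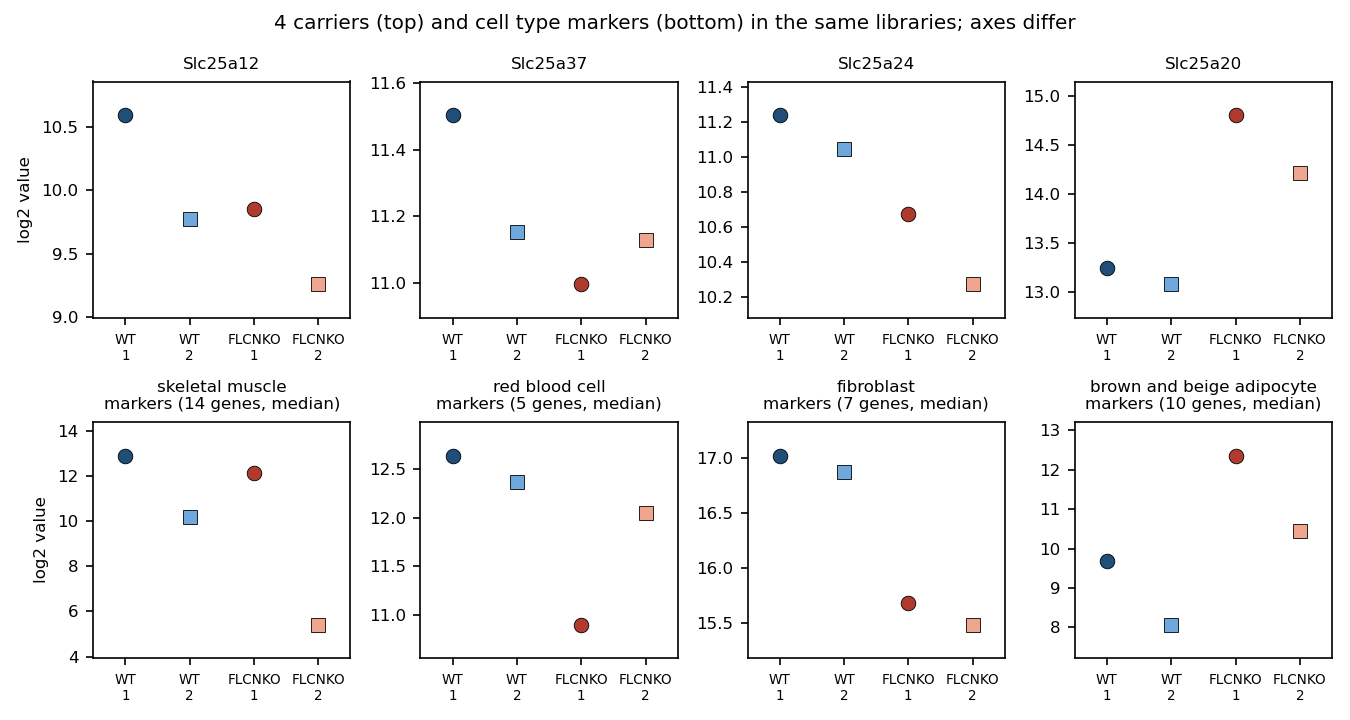
Log2 value of 4 carriers (top row) and the median log2 value of a marker list (bottom row) in each of the 4 libraries, with WT in blue and FLCNKO in red and axes that differ between panels; the 4 carriers were chosen after their values were seen. Each carrier has the same order of libraries as the marker median under it. The panels run from Slc25a12 with skeletal muscle (14 genes) to Slc25a20 with brown and beige adipocytes (10 genes). With carriers chosen in this way, the shared order is not a result. Single markers such as Acta1, Alas2 and Ppargc1a had other orders.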

How the data were processed

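RNA sequencing of 2 WT and 2 FLCNKO libraries was used. The deposited tables give 1 log2 value for each of 13677 Ensembl genes per library. The submitters' processing notes name STAR, limma and build mm9 and no versions. The sources used here do not give the read counter, its annotation or its strand setting. The values had nearly the same distribution in every library (medians 10.7636 to 10.7645), and a change common to most genes would be hidden. Ensembl identifiers gave a symbol for 13592 genes. Groups were compared with limma 3.58.1 (R 4.3.3), group as the only term, variance trend on the mean, two-sided. Benjamini-Hochberg adjustment was over 13677 genes, with threshold 0.05 and no filter. The variance of each gene was moderated towards that trend, with 2 residual and 3.09 prior degrees of freedom. The SEs and intervals of fold changes use this moderated variance. On simulated data with 13677 genes and 200 changed, this fit recovered 27.0%, 75.8%, 86.4% and 92.2% of genes changed by 1, 2, 3 and 4 (log2), so most differences of the size seen here would be missed. Members, classes, marker lists and pairs were chosen with earlier results of these data known. The rule for values per library took Flcn, called members, the 12 further members of smallest unadjusted p, the largest difference in each class and the paralogue pairs. The values of 1 member are not reported here, though counts over the family include it. Values of other members were added after they were seen. Alternatives were 2 filters, 2 normalizations, 2 variance settings, a replicate block and leaving out each library. Promoter windows are from RefSeq. No column was left unmapped. Sharing of 31-base stretches used GENCODE M21 transcripts. Figures used matplotlib 3.10.9.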

Additional observations from a re-analysis of the deposited data

How the results depend on the processing

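Settings that left in all libraries gave 276 comparisons of the 40 members with the main fit. Of these, 266 kept their side of the threshold, 9 newly passed and 1, Slc25a34 without the variance trend, was lost. No direction changed, but only the 2 normalizations could change a fold change. The filters, variance settings and replicate block leave it as it was, so the direction under them was fixed in advance. Keeping genes whose mean reached 8 left 36 members (Slc25a34 among those removed) with 0 called higher, 1 lower (Slc25a10), a median of 0.35 from fewer members, and 138 of all genes lower. Without the trend 0 members were called (15 higher and 3 lower at an unadjusted p under 0.05) and 0 of all genes either way (2702 at an unadjusted p under 0.05). Robust variance gave 2 higher members and 1 lower, and 143 genes lower. The numbers pair the libraries in no label, and with 2 pairs cannot be shown to; same-numbered deviations correlated at 0.36 over all genes and at 0.56 over the 40 members. With the replicate block 6 members were higher (Slc25a34, Slc25a20, Slc25a42, Slc25a35, Slc25a48 and Slc25a33) and 1 lower (Slc25a10), with 401 genes higher and 441 lower. Leaving out any 1 library gave 0 to 0 members higher and 0 to 0 genes higher or lower (members at an unadjusted p under 0.05: 9 to 21), with the lone library of a group assumed to vary like the other group. The sign changed for 10 members when 1 library was left out, with ranges of -0.46 to 0.035 for Slc25a13, -0.081 to 0.072 for Slc25a14, -0.17 to 0.40 for Slc25a15, -0.0024 to 0.25 for Slc25a16, -0.38 to 0.10 for Slc25a23, -0.21 to 0.074 for Slc25a27, -1.04 to 0.019 for Slc25a29, -0.061 to 0.12 for Slc25a36, -0.069 to 0.24 for Slc25a38 and -1.73 to 0.082 for Slc25a47. Among pairs it changed for Slc25a4 and Slc25a5 (-0.19 to 0.25), Slc25a12 and Slc25a13 (-0.89 to 0.057) and Slc25a28 and Slc25a37 (-0.23 to 0.25). Where calls were lost or gained, the cause was not tested, apart from the smaller number of members or libraries that a setting kept. Depth is unknown, so no limit from it can be given.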

Other observations

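Some carriers had a measured neighbour whose values are given here, and these were chosen after their values were seen. Tmem82, the next gene to Slc25a34, on the same strand, was 4.67 and 3.9999 in WT and 6.86 and 5.94 in FLCNKO (2.06 ± 0.81, SE; limma adjusted p = 0.225), and Plekhm2 on its other side was 11.37 and 11.50 in WT and 11.70 and 12.03 in FLCNKO (0.42 ± 0.15; adjusted p = 0.198). Both low genes, Slc25a34 and Tmem82, lay higher in both FLCNKO libraries than in both WT libraries.

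Slc25a29 and Slc25a47 are neighbours on opposite strands and ordered the 4 libraries alike, highest in WT replicate 2 (8.52 and 8.70) and lowest in FLCNKO replicate 1 (7.10 and 6.42). Mrpl12, a mitochondrial ribosome gene next to Slc25a10 on the same strand, was higher in both FLCNKO libraries (by 0.65 ± 0.16 on the log2 scale; limma adjusted p = 0.106), the opposite direction to Slc25a10. Ptges2, next to Slc25a25 on the opposite strand, rose by 0.98 ± 0.13 (limma adjusted p = 0.0478), with 11.23 and 11.39 in WT and 12.40 and 12.19 in FLCNKO.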
